A study of Homo sapiens with 6 samples.

Results

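The genes described here are 55 genes of DNA replication and nucleotide supply, chosen by symbol from 17789 gene symbols listed in 6 RNA-seq libraries. The choice was made with earlier results of these data known. Of the libraries, 3 were labelled FOXD3 knockdown and 3 wild type control, all made from A549-labelled cells, an adenocarcinoma line of the human lung. FOXD3, a forkhead transcription factor, was targeted with pooled small interfering RNAs and a lipid reagent, and knockdown was examined 72 h later, per the labels' protocols; what the control cells received is not given in the sources used here. All samples were grown in the same medium with fetal bovine serum, and whether the 3 libraries of a group had a culture each is not stated in the labels; the p-values here therefore rest on the spread between libraries alone, which may be technical. Values are FPKM (fragments per kilobase of transcript, scaled to the mapped fragments of a library), which compare levels between genes per length. All 55 genes were listed in all 6 libraries, each at 1 locus.

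Chromosomes are copied once per cell cycle. In G1 the origin recognition complex (ORC), CDC6 and CDT1 load the ring-shaped MCM2-7 helicase onto origins, a step called licensing, and geminin (GMNN) binds CDT1 and stops licensing once S phase has begun. CDC45 and the GINS complex then switch the helicase on, DNA polymerases alpha, epsilon and delta copy the strands, and the sliding clamp PCNA, placed by the RFC clamp loader, keeps polymerases on DNA. Ribonucleotide reductase, thymidylate synthase and thymidine kinase supply the deoxynucleotides. Many of these genes are transcribed at the G1/S boundary under control of E2F factors, so their RNA is known to vary over the cell cycle. In bulk RNA, more cells in a phase and more transcript per cell cannot be told apart.

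FOXD3 itself (chromosome 1, 63788730 to 63790797, hg19) had 0.0749 FPKM in the second knockdown library and no entry in the other 2, against 0.152, 0.291 and 0.134 FPKM in control replicates 1, 2 and 3. The groups did not overlap (two-sided exact permutation test, p = 0.1, which 3 against 3 cannot go below). The files hold no counts and the depth is unknown, so no interval could be set on values this low. Knockdown libraries listed 15651 to 15754 symbols and control libraries 16229 to 16288; small RNAs made up 4.85% of all FPKM in the second knockdown library, and between 1.02% and 1.94% elsewhere. Of the 12 markers of A549 and lung epithelium, KRT8, KRT18, AKR1B10 and AKR1C1 were abundant in every library. The 12 summed to 7664 to 7673 FPKM in knockdown and 5031 to 5709 FPKM in control libraries. Of 10 tested, 6 were called higher and 2 lower (limma), beside 25.6% and 37.9% of all 13340 tested genes. EPCAM averaged 159 FPKM in knockdown and 114 FPKM in control libraries, and ALDH1A1 averaged 98.1 and 31.7 FPKM. CDKN2A, which is deleted in A549, averaged 128 ± 1.55 FPKM in knockdown and 154 ± 0.814 FPKM in control libraries, and the surfactant gene SFTPB was listed nowhere. VIM averaged 1.17 ± 0.263 FPKM in knockdown and 3.79 ± 0.401 FPKM in control libraries. MTAP averaged 12.2 FPKM in knockdown and 10.5 FPKM in control libraries. NKX2-1 was low, at 1.597 FPKM in knockdown and 1.267 FPKM in control libraries. Neither MTAP nor NKX2-1 was called (limma). The CDKN2A levels conflict with the A549 label. Whether the MTAP and VIM levels match that label was not tested, nor was the identity of the line. The cells are therefore called by their label. The summed level of 7 leukocyte markers was 91.8 to 95.0 FPKM in knockdown and 165 to 184 FPKM in control libraries, nearly all of it from CD68 and LCP1. Of these markers 3 of 3 tested fell, where 37.9% of all 13340 tested genes were called lower. PTPRC, the marker of all leukocytes, averaged 0.194 FPKM in knockdown and 0.227 FPKM in control libraries. The 5 endothelial markers summed to 3.997 to 4.25 FPKM in knockdown and 6.57 to 7.80 FPKM in control libraries. The tested ones, 2 of 2, were lower, beside the same 37.9%. The 6 fibroblast markers summed to 2.96 to 3.58 FPKM in knockdown and 3.61 to 4.56 FPKM in control libraries; COL1A1 was the 1 tested member and was not called (limma, adjusted p = 0.0681, unadjusted 0.0451) and DCN and LUM were at 0 throughout. Their part in the results below was not tested.

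Most of the 55 genes were higher in the knockdown libraries. Of the 55, 45 rose, 1 fell and 9 did not pass (limma on log2(FPKM + 1), Benjamini-Hochberg adjusted p under 0.05 over 13340 genes). Over all tested genes 63.5% passed, 25.6% higher and 37.9% lower, so the 81.8% of members called higher stands against 25.6% and the 1.82% called lower against 37.9%. The median log2 change of the members was 0.64, against -0.087 over all tested genes. Scaling each library by its median gave 4140 genes higher (31%) and 4304 lower (32.3%), and quantile normalization 4304 higher (32.3%) and 3909 lower (29.3%), against 3417 higher and 5050 lower as deposited; quantile normalization moved the median of all genes to 0.025, and that of the members to 0.67. With either scaling 51 of the 55 rose: ORC2, ORC4, RPA3, PRIM2, POLD3 and CHAF1B, which did not pass as deposited, passed. Without control replicate 1, 49 rose and 2 fell. In 48 members every knockdown library was above every control library and in 2 every one was below, against 28.3% and 40.8% of all tested genes. A rise of at least 2-fold by mean FPKM that also passed the test was seen in 10 members, and in 2.9% of all tested genes.

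**Figure D1:**
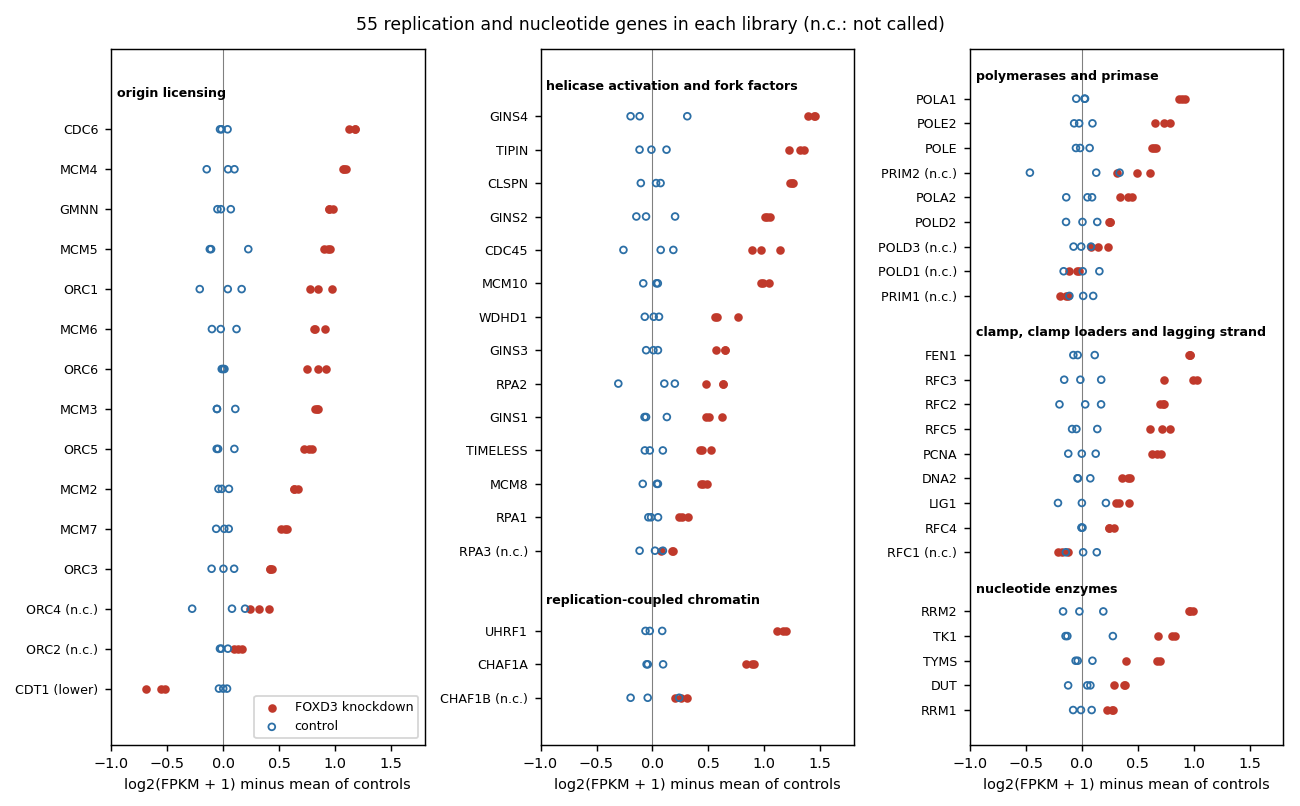
Each point is 1 library, placed by log2(FPKM + 1) minus the mean of the 3 control libraries for that gene; filled points are FOXD3 knockdown and open points control, and n.c. marks genes that were not called. The knockdown points lie to the right of the control points in 48 genes, and CDT1 stands alone as a called gene to the left.

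The 3 knockdown libraries lay close together. The median change of the 55 genes was 0.65, 0.64 and 0.63 in knockdown replicates 1, 2 and 3, each set against the control mean. Their FPKM summed to 1851, 1889.5 and 1869 in knockdown replicates 1, 2 and 3, against 1309, 1192 and 1170.0 in control replicates 1, 2 and 3. Every knockdown sum was above every control sum, and control replicate 1 was the highest control library for 37 of the 55 genes (34.3% of all tested genes). Levels ran over a wide range, with PCNA the most abundant member in both groups, ORC4 the least abundant in knockdown and CLSPN the least abundant in control libraries. Across the 55 genes, Spearman's rho between control level and log2 change was -0.305, and over all 13340 genes it was 0.110. Members with low control levels thus tended to have the larger changes. This is a description over genes that share the same libraries. The control values also enter both quantities, which by itself pulls rho down.

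Calls differed in number between the roles. All 5 nucleotide enzymes rose, as did 13 of 14 helicase activation and fork factors, 8 of 9 clamp, clamp loader and lagging-strand genes, 12 of 15 licensing genes, 2 of 3 chromatin genes and 5 of 9 polymerase and primase genes. The median log2 change was 0.84 for licensing, 0.63 for helicase activation and fork factors, 0.67 for clamp and lagging-strand genes, 0.59 for nucleotide enzymes, 0.88 for the chromatin genes and 0.40 for polymerases and primase. The differences between roles were not tested.

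**Figure D2:**
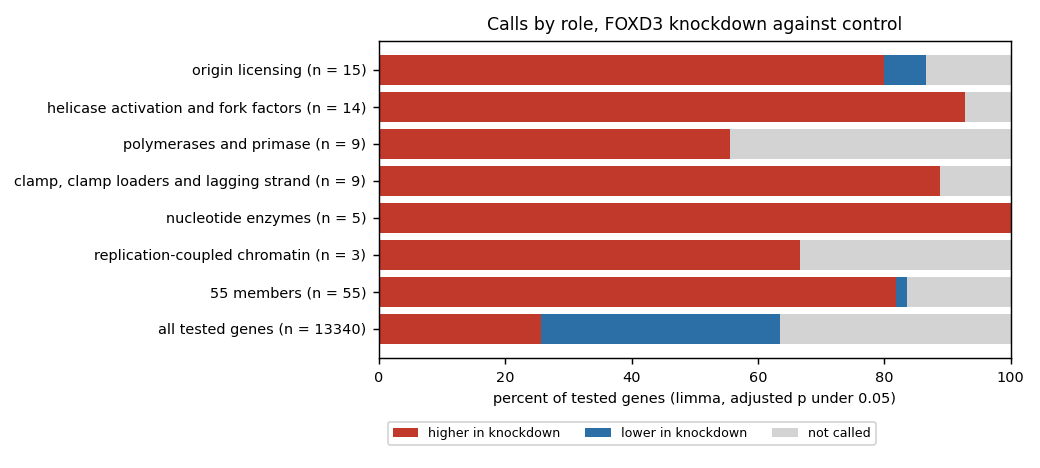
Percent of tested genes called higher, called lower or not called in FOXD3 knockdown against control libraries, by role, for all 55 genes and for all 13340 tested genes. The higher share reaches 100% for the 5 nucleotide enzymes, 55.6% for polymerases and primase, and 25.6% over all tested genes.

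Many members shared a short element in their promoters, which the choice of genes did not use. RefSeq windows of 300 bases (250 before to 50 after the annotated start, GRCh38.p14, gene strand) were held for 48 of the 55 genes, and the first window listed for a gene was used. An E2F-type site, searched on both strands as TTTCCCGC, TTTCGCGC, TTTGCCGC or TTTGGCGC with overlapping matches joined, was found in 21 of the 48 (43.8%), against 3.33% of the 27305 genes with a window of the same length. Counting every window listed for a gene, it was in 24 of 48 (50%), against 3.99%, the other genes being DUT, GMNN and TIPIN. The CCAAT box (CCAAT) was in 58.3% of the 48 and 35.7% of all, the GC box (GGGCGG) in 72.9% and 44.6%, and the CHR element (TTTGAA) in 2.08% and 15.4%. The 27305 genes were not limited to those tested here, and base composition was not matched. The part of either in these contrasts was not tested. Of the 21 genes with the E2F-type match 20 rose and 1, CDT1, fell. Of the 27 without it 20 rose and 7 were not called. Both stand beside 25.6% called higher and 37.9% called lower over all 13340 tested genes. The median log2 change was 0.64 with and 0.63 without the match. The genes counted as without it include DUT, GMNN and TIPIN, which hold it in another window. Only these exact letters were searched, so others of them may hold a different form of the site. The counts and medians therefore do not compare genes with and without E2F sites. A match is a run of letters in this window and says nothing of binding in these cells.

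Stretches around a match are shown for 12 genes of different roles, to let the shared letters be read. The match is in capitals, with 10 bases on each side, 5′ to 3′ on the gene's strand. For MCM3 and MCM7 the match nearer the start is shown. Their farther matches, TTTCCCGC at -174 in MCM3 and GCGGGAAA at -187 in MCM7, are left out.
MCM2: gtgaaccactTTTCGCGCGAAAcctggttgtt
MCM3: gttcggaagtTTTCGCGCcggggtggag
MCM7: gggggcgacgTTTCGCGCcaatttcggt
CDC6: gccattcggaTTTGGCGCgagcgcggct
CDT1: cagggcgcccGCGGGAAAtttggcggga
GINS2: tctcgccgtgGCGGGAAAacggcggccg
CLSPN: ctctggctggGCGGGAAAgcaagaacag
POLA1: tcatcacaggGCGCCAAAcgcgcgtccg
POLE2: tgcggcggtgGCGCCAAAtcgcaaatat
PCNA: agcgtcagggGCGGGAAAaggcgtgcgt
TYMS: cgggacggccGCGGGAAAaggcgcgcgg
UHRF1: ccgagttttcGCGGGAAAaaaatcagag

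MCM6 is shown whole because its window holds a joined pair of overlapping matches at 2 places, and CDT1 because it holds a match and fell. The MCM6 window lies at chr2:135876394-135876693 on the minus strand and the CDT1 window at chr16:88803539-88803838 on the plus strand of GRCh38.p14, with matches in capitals.
MCM6: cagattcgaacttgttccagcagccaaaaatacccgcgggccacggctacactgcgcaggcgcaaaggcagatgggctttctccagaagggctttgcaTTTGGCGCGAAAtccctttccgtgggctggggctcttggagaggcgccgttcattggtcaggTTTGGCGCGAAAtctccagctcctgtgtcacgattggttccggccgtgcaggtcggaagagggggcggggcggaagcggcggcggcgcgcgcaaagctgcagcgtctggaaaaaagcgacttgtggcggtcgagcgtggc
CDT1: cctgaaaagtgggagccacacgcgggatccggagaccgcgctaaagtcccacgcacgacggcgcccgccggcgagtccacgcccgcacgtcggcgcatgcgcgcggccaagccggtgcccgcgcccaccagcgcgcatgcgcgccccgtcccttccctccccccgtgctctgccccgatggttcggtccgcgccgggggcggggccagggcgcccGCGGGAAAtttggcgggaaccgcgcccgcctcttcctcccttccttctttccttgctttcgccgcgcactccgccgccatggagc
Of 24 matches in member windows 18 (75.0%) began within 60 bases of the start, against 339 of 947 matches (35.8%) in all windows; the 60-base range was chosen after the positions were seen.

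**Figure D3:**
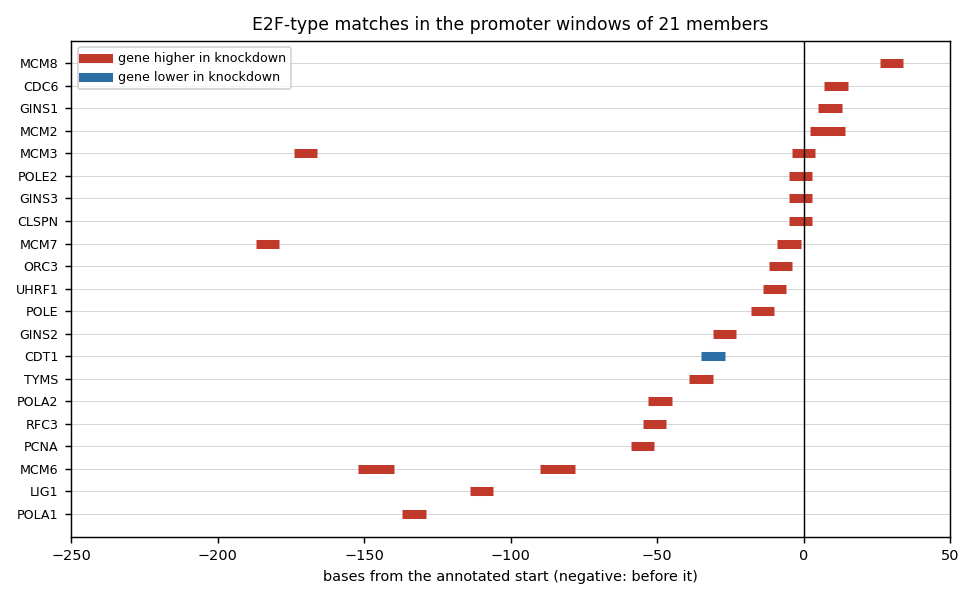
Position of each E2F-type match (bars, to scale) in the promoter windows of 21 genes, in bases from the annotated start; red marks genes called higher and blue the gene called lower in knockdown. Most bars lie close to the start, and MCM3, MCM6 and MCM7 hold matches at 2 places.

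Origin licensing came first in the order of events, and its opposing regulators moved apart. CDT1 (chromosome 16, 88870186 to 88875666, hg19), which recruits MCM2-7 to origins, stood at 12.02, 13.6 and 13.3 FPKM in knockdown replicates 1, 2 and 3, against 20.5, 19.4 and 19.97 FPKM in control replicates 1, 2 and 3. All knockdown values lay below all control values, and CDT1 was the only member called lower (log2 change -0.59, SE 0.063, adjusted p = 9.05e-05; limma, Benjamini-Hochberg). GMNN (chromosome 6, 24775159 to 24786325, hg19), the inhibitor of CDT1, had 44.8, 44.9 and 46.04 FPKM in the knockdown libraries, against 23.9, 21.9 and 22.4 FPKM in the controls. Its groups were far apart on the other side, a 1.99-fold rise (log2 change 0.96, SE 0.05, adjusted p = 2.93e-06). The ratio of GMNN to CDT1 within a library was therefore 3.73, 3.298 and 3.47 in knockdown and 1.17, 1.13 and 1.12 in control libraries, with no overlap. This and the ratios between partners given for other members were chosen after the values were seen and were not tested. In the authors' deposited table CDT1 had a log2 change of -0.46 with a false discovery rate of 0.147, and GMNN 1.09 with 0.000722, so the fall of CDT1 was not called there.

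CDC6 (chromosome 17, 38444146 to 38459413, hg19), the loading ATPase that works with CDT1, stood at 28.96, 30.1 and 30.1 FPKM in knockdown libraries, against 12.6, 12.5 and 13.1 FPKM in controls. Its 2.33-fold rise was the largest among the licensing genes and exceeded the spread of either group many times over (log2 change 1.16, SE 0.052, adjusted p = 1.32e-06). Among the 6 ORC subunits, which mark origins, 4 rose. ORC1, the subunit whose level is known to vary over the cell cycle, averaged 17.1 ± 1.23 FPKM in knockdown and 8.94 ± 1.28 FPKM in control libraries (SD, n = 3 each, as below). ORC6 averaged 21.3 ± 1.33 FPKM in knockdown and 11.5 ± 0.103 FPKM in control libraries. The largest levels among the called subunits were those of ORC6. ORC5 averaged 15.1 ± 0.418 FPKM in knockdown and 8.48 ± 0.586 FPKM in control libraries, and ORC3 averaged 13.3 ± 0.135 FPKM in knockdown and 9.64 ± 0.741 FPKM in control libraries. The called ORC changes ran from 0.42 to 0.87 on the log2 scale. ORC2 stood at 15.2, 15.6 and 16.05 FPKM in knockdown and 13.8, 14.6 and 13.97 FPKM in control libraries, just above without overlap but not called (log2 change 0.14, SE 0.056, adjusted p = 0.0614). ORC4 stood at 5.53, 5.14 and 5.93 FPKM in knockdown and 3.302, 4.97 and 4.505 FPKM in control libraries, also without overlap and not called (log2 change 0.32, SE 0.13, adjusted p = 0.0514); its locus overlaps ACVR2A and MBD5, and without a stated strand setting their reads cannot be told apart. The ratio of ORC1 to ORC2 was 1.11, 1.18 and 0.995 in knockdown and 0.663, 0.691 and 0.541 in control libraries, so the subunits did not move by the same factor.

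All 6 MCM2-7 helicase subunits rose. MCM4 (chromosome 8, 48872763 to 48890719, hg19) had 48.2, 48.7 and 47.9 FPKM in knockdown and 24.00, 23.03 and 20.1 FPKM in control libraries. MCM5 (chromosome 22, 35796116 to 35820495, hg19) had 42.01, 42.6 and 41.1 FPKM in knockdown and 25.3, 19.7 and 19.9 FPKM in control libraries. Neither gene's groups overlapped, and the changes were 1.08 (SE 0.068, adjusted p = 6.32e-06) and 0.93 (SE 0.091, adjusted p = 5.41e-05) on the log2 scale, limma. MCM6 averaged 45.3 ± 1.83 FPKM in knockdown and 24.8 ± 2.01 FPKM in control libraries. MCM3 averaged 50.3 ± 0.535 FPKM in knockdown and 27.8 ± 1.92 FPKM in control libraries. MCM2 averaged 69.8 ± 1.03 FPKM in knockdown and 44.3 ± 1.51 FPKM in control libraries, and MCM7 averaged 111 ± 2.09 FPKM in knockdown and 75.4 ± 2.99 FPKM in control libraries. MCM7, the most abundant subunit in both groups, changed least (1.47-fold), and its locus overlaps AP4M1. The 6 subunits summed to 367, 367 and 364 FPKM in knockdown and 230.4, 212 and 206 FPKM in control libraries. The highest subunit was 2.67, 2.61 and 2.63 times the lowest in the knockdown libraries and 3.25, 3.85 and 3.63 times in the controls, so the levels of the subunits lay closer together in knockdown libraries.

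**Figure D4:**
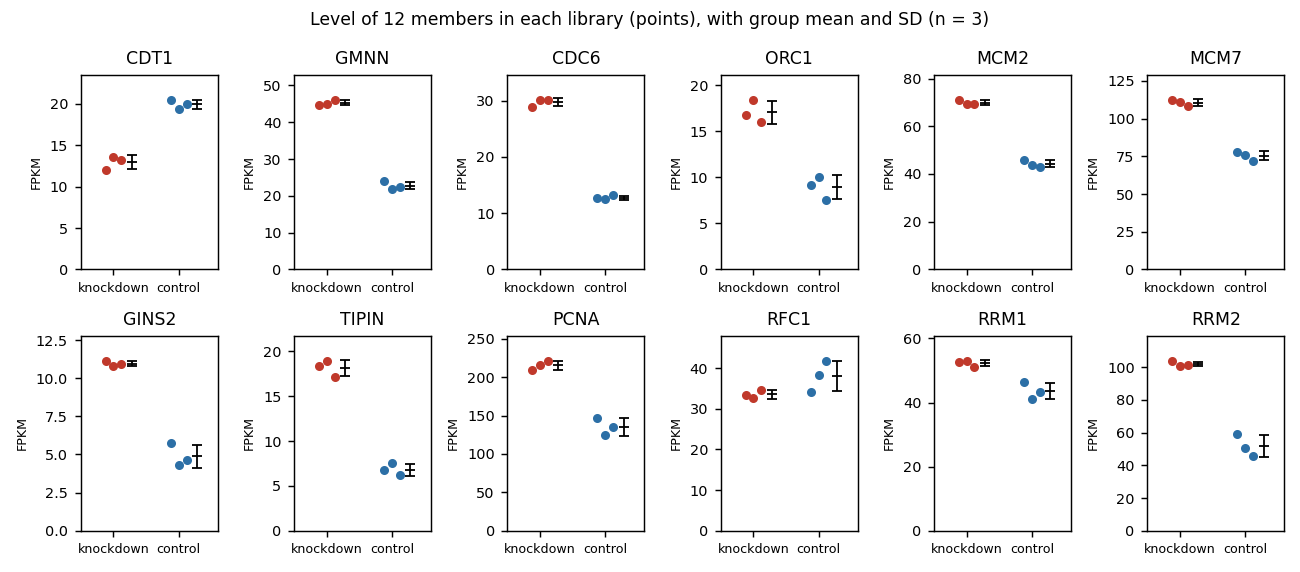
FPKM of 12 members in each library, knockdown left and control right, with the group mean and SD (n = 3) beside the points and each axis starting at 0. CDT1 is lower in knockdown, RFC1 overlaps between the groups, and the other 10 genes are higher in all 3 knockdown libraries.

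Helicase activation and fork genes held the 3 largest log2 changes of the 55. GINS4 (chromosome 8, 41386725 to 41402565, hg19), a subunit of the GINS complex that activates the MCM helicase with CDC45, stood at 14.4, 15.1 and 15.1 FPKM in knockdown and 6.303, 4.14 and 4.44 FPKM in control libraries. It had the largest change of any member, 2.996-fold, with control replicate 1 above the other 2 controls but far below every knockdown library (log2 change 1.43, SE 0.13, adjusted p = 3.13e-05; limma). GINS2 had 11.1, 10.8 and 10.9 FPKM in knockdown libraries, against 5.73, 4.299 and 4.63 FPKM in controls, again without overlap (log2 change 1.03, SE 0.096, adjusted p = 4.27e-05). GINS3 averaged 13.9 ± 0.4799 FPKM in knockdown and 8.69 ± 0.356 FPKM in control libraries, and GINS1 averaged 13.3 ± 0.767 FPKM in knockdown and 8.901 ± 0.781 FPKM in control libraries, log2 rises of 0.62 and 0.54. The GINS4 to GINS1 ratio was 1.11, 1.18 and 1.06 in knockdown and 0.643, 0.493 and 0.522 in control libraries. CDC45 averaged 21.2 ± 1.97 FPKM in knockdown and 10.2 ± 1.73 FPKM in control libraries, a 2.08-fold rise. MCM10, which assists activation of the helicase, averaged 10.01 ± 0.281 FPKM in knockdown and 4.52 ± 0.271 FPKM in control libraries, a 2.21-fold rise.

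Genes of the fork protection complex and its checkpoint mediator rose by different factors. TIPIN (chromosome 15, 66629008 to 66649054, hg19), the partner of TIMELESS at the fork, had 18.4, 18.9 and 17.1 FPKM in knockdown and 6.75, 7.51 and 6.198 FPKM in control libraries. Its values formed separate groups (2.66-fold; log2 change 1.29, SE 0.079, adjusted p = 5.46e-06; limma). TIMELESS averaged 17.04 ± 0.643 FPKM in knockdown and 12.1 ± 0.763 FPKM in control libraries, a 1.41-fold rise, and the TIPIN to TIMELESS ratio was 1.11, 1.06 and 1.02 in knockdown and 0.5204, 0.653 and 0.522 in control libraries. CLSPN (chromosome 1, 36197713 to 36235551, hg19), claspin, which carries the stalled-fork signal to the kinase CHK1, had 6.55, 6.62 and 6.69 FPKM in knockdown and 1.996, 2.29 and 2.39 FPKM in control libraries. It was the least abundant member in controls, and all 3 knockdown values lay close together above them (2.98-fold; log2 change 1.24, SE 0.082, adjusted p = 7.69e-06). WDHD1, which links the helicase to polymerase alpha, averaged 13.4 ± 1.14 FPKM in knockdown and 8.299 ± 0.411 FPKM in control libraries. MCM8, a helicase better known from homologous recombination, averaged 16.02 ± 0.287 FPKM in knockdown and 11.4 ± 0.638 FPKM in control libraries; both passed, at 0.63 and 0.46 on the log2 scale.

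Of the single-strand binding complex RPA, 2 of 3 subunits rose. RPA2 averaged 21.3 ± 1.303 FPKM in knockdown and 14.1 ± 2.67 FPKM in control libraries. RPA1 averaged 52.5 ± 1.48 FPKM in knockdown and 43.2 ± 1.37 FPKM in control libraries. Both rose, with log2 changes of 0.58 (adjusted p = 0.00382) and 0.27 (adjusted p = 0.00113) by limma. RPA3 stood at 21.3, 19.7 and 21.1 FPKM in knockdown and 19.9, 18.9 and 17.1 FPKM in control libraries. Its groups overlapped at the second knockdown and first control library, and it was not called (log2 change 0.15, SE 0.068, adjusted p = 0.092); the locus overlaps LOC729852.

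Polymerases and primase had the lowest share of calls among the roles. POLA1 (chromosome X, 24712064 to 25015102, hg19), the catalytic subunit of polymerase alpha, which starts each strand, had 8.84, 9.23 and 9.03 FPKM in knockdown and 4.503, 4.21 and 4.48 FPKM in control libraries. The groups were tight and apart, a 2.05-fold rise (log2 change 0.89, SE 0.068, adjusted p = 1.47e-05; limma). Its partner POLA2 had 25.3, 26.5 and 27.2 FPKM in knockdown libraries, against 20.4, 21.1 and 17.8 FPKM in controls, a smaller rise without overlap (log2 change 0.40, SE 0.071, adjusted p = 0.00143). The primase subunits that share this complex did not pass. PRIM1, which makes the RNA primer, stood at 22.1, 21.8 and 20.99 FPKM in knockdown and 24.4, 22.3 and 26.03 FPKM in control libraries. Every knockdown value was below every control value, by a margin smaller than the spread of the controls, and the test was not passed (log2 change -0.15, SE 0.065, adjusted p = 0.0671); without control replicate 2 it was (adjusted p = 0.0208). PRIM2 stood at 7.76, 8.94 and 9.79 FPKM in knockdown and 7.93, 6.72 and 4.12 FPKM in control libraries, with overlap and wide scatter in both groups (log2 change 0.47, SE 0.19, adjusted p = 0.0585); the gene has a near-identical partial copy in the genome, so its values are uncertain. The POLA1 to PRIM1 ratio was 0.3995, 0.423 and 0.4301 in knockdown and 0.185, 0.189 and 0.172 in control libraries.

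Epsilon and delta, the leading- and lagging-strand polymerases, also differed in their calls. POLE (chromosome 12, 133200348 to 133263945, hg19), the catalytic subunit of epsilon, had 16.2, 16.02 and 15.8 FPKM in knockdown and 10.4, 9.77 and 9.49 FPKM in control libraries. POLE2, its second subunit, had 9.599, 9.03 and 10.01 FPKM in knockdown and 5.07, 5.26 and 5.800 FPKM in control libraries. Both were higher in all 3 knockdown libraries, at 0.64 (SE 0.06) and 0.73 (SE 0.076) on the log2 scale, with adjusted p = 4.09e-05 and 7.77e-05 by limma. POLD1 (chromosome 19, 50887593 to 50921271, hg19), the catalytic subunit of delta, stood at 20.3, 20.5 and 19.2 FPKM in knockdown and 23.4, 21.1 and 18.6 FPKM in control libraries. Its knockdown values lay inside the control range (log2 change -0.062, SE 0.083, adjusted p = 0.533), and the sign of this small difference turned positive after median scaling. POLD3 stood at 17.5, 16.4 and 15.7 FPKM in knockdown and 15.7, 14.7 and 13.9 FPKM in control libraries, narrowly above the controls without overlap and not called (log2 change 0.15, SE 0.067, adjusted p = 0.0752). POLD2, an accessory subunit of delta, averaged 84.9 ± 0.213 FPKM in knockdown and 71.5 ± 6.98 FPKM in control libraries and rose by 0.25 on the log2 scale (adjusted p = 0.0121). Within a library the POLE to POLD1 ratio was 0.796, 0.781 and 0.822 in knockdown and 0.444, 0.464 and 0.5105 in control libraries.

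**Figure D5:**
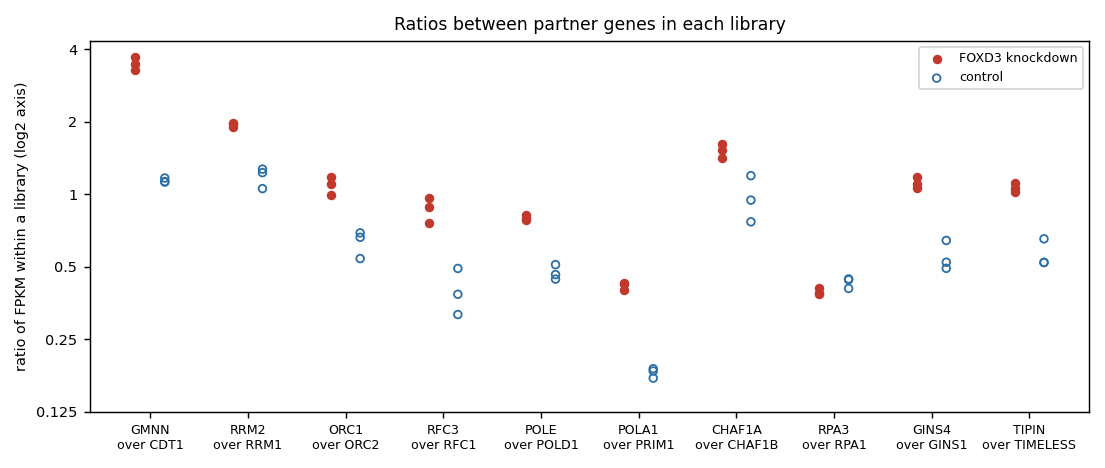
Ratio of FPKM between 10 pairs of partner genes within each library, on a log2 axis, with FOXD3 knockdown as filled points left of the open control points. GMNN over CDT1 shows the widest gap, 3.30 to 3.73 in knockdown and 1.12 to 1.17 in control libraries, and RPA3 over RPA1 overlaps between the groups.

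PCNA and the small clamp loader subunits rose. PCNA (chromosome 20, 5095599 to 5107268, hg19), the sliding clamp, stood at 209, 216 and 221 FPKM in knockdown and 147, 124 and 135 FPKM in control libraries. The groups did not overlap (1.59-fold; log2 change 0.67, SE 0.062, adjusted p = 4.32e-05; limma). RFC3 had 25.4, 31.4 and 30.6 FPKM in knockdown libraries, against 16.9, 14.7 and 13.2 FPKM in controls. RFC2 had 38.9, 39.1 and 38.2 FPKM in knockdown libraries, against 26.1, 23.6 and 19.97 FPKM in controls, and RFC5 had 27.5, 28.9 and 25.3 FPKM in knockdown libraries, against 18.01, 15.3 and 15.7 FPKM in controls. These small subunits of the loader rose by 0.92, 0.72 and 0.70 on the log2 scale, each without overlap, and RFC4 rose by 0.26. RFC4 averaged 43.7 ± 0.7899 FPKM in knockdown and 36.4 ± 0.118 FPKM in control libraries, and its locus overlaps EIF4A2. RFC1 (chromosome 4, 39289069 to 39368001, hg19), the large subunit, behaved differently, at 33.5, 32.6 and 34.6 FPKM in knockdown and 34.3, 38.2 and 41.7 FPKM in control libraries. Its groups overlapped at the lowest control and it was not called (log2 change -0.17, SE 0.072, adjusted p = 0.0663); it fell under quantile normalization (adjusted p = 0.0482) and without control replicate 1 (adjusted p = 0.00648). The RFC3 to RFC1 ratio was 0.757, 0.965 and 0.883 in knockdown and 0.492, 0.384 and 0.317 in control libraries.

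Genes that finish the lagging strand rose by unequal amounts. FEN1 (chromosome 11, 61560109 to 61564714, hg19), the flap nuclease that trims Okazaki fragments, had 45.7, 45.3 and 45.6 FPKM in knockdown and 24.9, 22.3 and 21.7 FPKM in control libraries. Its knockdown values were almost identical and well above the controls (1.98-fold; log2 change 0.96, SE 0.059, adjusted p = 5.79e-06; limma). DNA2, a nuclease and helicase that cuts long flaps, averaged 12.2 ± 0.335 FPKM in knockdown and 9.03 ± 0.457 FPKM in control libraries. LIG1, which seals the nicks, averaged 21.7 ± 0.946 FPKM in knockdown and 16.9 ± 2.65 FPKM in control libraries. LIG1 rose by 0.35 on the log2 scale (adjusted p = 0.0165), and this call was lost without knockdown replicate 2 (adjusted p = 0.0587; 0.00181 to 0.0587 over 16 alternatives).

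All 5 enzymes of deoxynucleotide supply rose by limma. In the authors' deposited table RRM2 and TK1 passed, each with a false discovery rate of 0.000722. RRM1, TYMS and DUT did not pass there, with false discovery rates of 0.264, 0.0818 and 0.212. RRM2 (chromosome 2, 10262695 to 10271546, hg19), the small subunit of ribonucleotide reductase and the one that varies over the cell cycle, had 104, 101 and 102 FPKM in knockdown and 58.9, 50.7 and 45.7 FPKM in control libraries. RRM1, the large subunit, had 52.7, 52.9 and 51.2 FPKM in knockdown and 46.3, 41.2 and 43.3 FPKM in control libraries. Neither overlapped between groups, but RRM2 changed 1.97-fold (log2 change 0.97, SE 0.083, adjusted p = 2.63e-05) and RRM1 only 1.198-fold (log2 change 0.26, SE 0.053, adjusted p = 0.00315; limma). RRM2 was 1.97, 1.91 and 1.99 times RRM1 in the knockdown libraries and 1.27, 1.23 and 1.06 times in the controls. TK1, the cytosolic thymidine kinase of S phase, stood at 124.7, 127 and 114 FPKM in knockdown libraries, against 86.3, 64.2 and 64.9 FPKM in controls, with control replicate 1 the highest control and still below every knockdown library (log2 change 0.77, SE 0.11, adjusted p = 0.000402). TYMS, thymidylate synthase, stood at 26.5, 32.3 and 33.1 FPKM in knockdown libraries, against 21.4, 19.4 and 19.1 FPKM in controls, with knockdown replicate 1 nearest the controls (log2 change 0.59, SE 0.089, adjusted p = 0.0006); the locus overlaps ENOSF1 and C18orf56. DUT, which destroys dUTP and so keeps uracil out of DNA, had 37.1, 39.6 and 39.8 FPKM in knockdown libraries, against 31.95, 31.3 and 27.7 FPKM in controls, a smaller change without overlap (log2 change 0.35, SE 0.065, adjusted p = 0.00182). GENCODE release 29 names pseudogenes of 9 of the 55 genes: 8 of DUT, 3 each of RRM2, PCNA and RPA2, 2 of TYMS and 1 each of POLD2, RFC3, RFC5 and FEN1. How reads shared with these copies were divided is not given in the sources used here, so those levels are uncertain.

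Chromatin genes that act behind the fork rose in 2 of 3. UHRF1 (chromosome 19, 4909510 to 4962165, hg19), which brings the maintenance methyltransferase DNMT1 to new DNA, stood at 25.8, 26.3 and 24.8 FPKM in knockdown and 11.7, 10.7 and 10.4 FPKM in control libraries. Both groups were tight, and the change was 2.34-fold (log2 change 1.16, SE 0.061, adjusted p = 3e-06; limma). CHAF1A and CHAF1B are the large and middle subunits of the CAF-1 histone chaperone. CHAF1A had 16.2, 15.9 and 15.3 FPKM in knockdown libraries, against 7.89, 8.77 and 7.82 FPKM in controls (log2 change 0.88, SE 0.066, adjusted p = 1.46e-05), without overlap. CHAF1B stood at 9.98, 10.4 and 10.9 FPKM in knockdown libraries, against 10.3, 7.34 and 8.27 FPKM in controls, where control replicate 1 exceeded a knockdown library, and it was not called (log2 change 0.26, SE 0.11, adjusted p = 0.0695).

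Further genes of the same pathways were counted from lists outside the 55. These lists, like the 55, were chosen with earlier results of these data known, so their shares are no independent check. Of 34 other replication factors 26 rose (76.5%) and 2 fell (5.88%), beside 25.6% and 37.9% of all tested genes, with a median log2 change of 0.47. DBF4, the activator of the origin-firing kinase CDC7, averaged 16.5 ± 0.479 FPKM in knockdown and 8.100 ± 0.699 FPKM in control libraries. DSCC1, of an alternative clamp loader, averaged 13.2 ± 0.947 FPKM in knockdown and 6.34 ± 1.27 FPKM in control libraries. POLD4, the smallest subunit of polymerase delta, went the other way, at 70.9, 60.3 and 59.1 FPKM in knockdown and 131, 129 and 124.9 FPKM in control libraries. All its knockdown values were below all controls (log2 change -1.01, SE 0.07, adjusted p = 9.52e-06; limma), and the second gene called lower was RPAIN, an RPA import factor, at 13.9 ± 0.875 FPKM in knockdown and 19.9 ± 0.553 FPKM in control libraries. Of 33 other nucleotide enzymes 20 rose (60.6%) and 4 fell (12.1%), against 25.6% and 37.9% of all tested genes, with a median log2 change of 0.22. PRPS1, which makes the ribose donor of nucleotide synthesis, averaged 77.7 ± 1.53 FPKM in knockdown and 35.6 ± 7.55 FPKM in control libraries. NME1, a nucleoside diphosphate kinase next to its close paralog NME2, averaged 257 ± 9.01 FPKM in knockdown and 119 ± 15.4 FPKM in control libraries.

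Of the 4 that fell, TK2, the mitochondrial thymidine kinase, averaged 2.01 ± 0.255 FPKM in knockdown and 5.18 ± 0.0701 FPKM in control libraries. SAMHD1, which breaks down deoxynucleotide triphosphates, averaged 5.202 ± 0.184 FPKM in knockdown and 7.54 ± 0.727 FPKM in control libraries. CTPS2, a CTP synthase, averaged 5.01 ± 0.429 FPKM in knockdown and 7.18 ± 0.269 FPKM in control libraries, and ADSS, an enzyme of AMP synthesis, changed least of the 4 (-0.20 on the log2 scale). The cytosolic and mitochondrial thymidine kinases, TK1 and TK2, therefore differed in direction, with log2 changes of 0.77 and -1.04. In the list of E2F, RB and DREAM complex genes, which are known to regulate many replication genes, 12 of 19 rose (63.2%) and 4 fell (21.1%), beside 25.6% and 37.9% of all tested genes, with a median log2 change of 0.27. Activators, repressors and pocket proteins were each among those that rose. MYBL2, the MYB factor that joins the DREAM core in cycling cells, averaged 171 ± 3.23 FPKM in knockdown and 67.7 ± 10.9 FPKM in control libraries. E2F2, an activator, averaged 6.15 ± 0.163 FPKM in knockdown and 2.36 ± 0.217 FPKM in control libraries. Of the factors known mainly as repressors, E2F4, E2F6 and E2F8 rose, by 0.26, 0.25 and 0.79 on the log2 scale, and E2F7 was not called (0.22, limma adjusted p = 0.223). E2F5, which pairs with the pocket proteins as a repressor, fell to 1.96 ± 0.428 FPKM in knockdown libraries, against 5.86 ± 0.906 FPKM in controls. The pocket proteins RB1 and RBL1 rose, by 0.27 and 0.57 on the log2 scale, while RBL2, the pocket protein p130, fell to 19.9 ± 1.22 FPKM in knockdown libraries, against 31.8 ± 1.94 FPKM in controls. TFDP2, an E2F partner, fell to 5.84 ± 0.267 FPKM in knockdown libraries, against 9.23 ± 0.308 FPKM in controls, and LIN37, a DREAM complex subunit, fell by 0.58 on the log2 scale.

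The authors' deposited table, which gives 1 value per group, held all 55 genes. At a false discovery rate under 0.05 it had 34 of them higher and 0 lower (1, CDT1, at an unadjusted p under 0.05), against 10.9% higher and 11.2% lower of its 12275 genes. The other 21 of the 55 did not pass there. The median log2 change of the 55 in the authors' deposited table was 0.80. That table rests on the same 6 libraries and is no separate evidence.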

How the data were processed

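RNA was extracted from 6 samples of A549-labelled cells with an RNeasy MinElute kit and sequenced from TruSeq RNA libraries (labels' protocols). The submitters' processing notes name Cufflinks 2.0.2, Cuffdiff, Bowtie, TopHat2 2.0.12 and hg19, with no roles; no source used here gives annotation, strand or read length. The authors deposited FPKM per gene and library (3 FOXD3 knockdown, 3 control). They also deposited a comparison that holds, per the file headers, group FPKM (1 value each), the log2 fold between groups, and p-values with false discovery rates. Depth is unknown, so no counting interval was set; FPKM are shares of a library, so a change in abundant transcripts moves all others.

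FPKM were summed over the loci of a symbol, an unlisted gene was set to 0, and the 13340 genes averaging 0.5 FPKM or more were tested on log2(FPKM + 1) with limma 3.58.1 in R 4.3.3 (empirical Bayes with a trend, Benjamini-Hochberg adjusted p under 0.05); all 55 members passed this filter. Folds are ratios of mean FPKM, and log2 changes on this scale understate those of low genes. FOXD3, below the filter, had an exact permutation test. Values per library are given in each role for the 4 members with the largest called change and for every member that was lower or not called; PCNA and the remaining nucleotide and chromatin genes were added. Promoters are RefSeq windows on GRCh38.p14 and locus coordinates are hg19. Alternatives were pseudocounts of 0.1 and 0.5, no filter, a filter at 5 FPKM, median scaling, quantile normalization, totals without small RNAs, 2 other variance settings, the top locus only, and leaving out each library. The members and lists were chosen with earlier results of these data known.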

Additional observations from a re-analysis of the deposited data

How the results depend on the processing

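Over 16 alternatives, 45 of the 55 genes kept their direction and their side of the threshold in every alternative that tested them, as did 44 of the 45 higher calls, LIG1 being the exception. The filter at 5 FPKM left 53 of the 55 in the test, without CLSPN and ORC4. The number called higher ran from 44 to 51 and the number called lower from 1 to 2, where 18.5% to 32.4% of all tested genes were called higher and 29.3% to 38.3% lower. The median log2 change of the 55 was 0.64 as deposited, 0.67 and 0.66 with pseudocounts of 0.1 and 0.5, 0.72 after median scaling, 0.67 after quantile normalization, 0.68 without small RNAs, and 0.63 to 0.68 when a library was left out. Quantile normalization gave 2 members lower, adding RFC1; leaving out a library gave 1 to 2, the second being RFC1 without control replicate 1 and PRIM1 without control replicate 2. POLD1, not called in any setting, changed sign to 0.022 after median scaling and ran from -0.14 to 0.016 when a library was left out (0.016 without control replicate 1). With a filter at 5 FPKM, 9170 genes were tested, of which 3295 were called lower (35.9%) and 2967 higher (32.4%). In the main setting the shares were 37.9% lower and 25.6% higher. The cause of this and of the other changes was not tested. FOXD3 was run only under median scaling, totals without small RNAs and the top locus. It kept its direction, with p = 0.1 by the exact permutation test, which cannot be smaller here. FOXD3 has 1 locus and an unlisted value stays 0 under scaling, so these settings could hardly have changed its direction. No paired analysis was possible because the labels give the libraries no replicate numbers; the numbers used here only name the libraries of a group. Unknown depth limits what can be said of genes listed at or near 0, FOXD3 among them, and no interval could be set for counting error.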
